A study of Mus musculus with 12 samples.

Results

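Proteasomes cut cellular proteins into peptides, and interferon gamma (IFN-gamma) makes cells exchange part of the proteasome's parts for inducible versions. The genes described here are 8 of the 16283 genes in the count table: 5 inducible genes (Psmb8, Psmb9, Psmb10, Psme1 and Psme2) and 3 constitutive ones (Psmb5, Psmb6 and Psmb7). They were taken by gene symbol, all 8 were in the table and all 8 passed the filter on low counts. RNA was sequenced from 4T1 cells, a transplantable mammary carcinoma line from the BALB/c mouse, and the study set cells with intact Cebpd beside cells with Cebpd loss. Cebpd encodes a C/EBP family transcription factor. The study used 3 lines, a control line with a guide RNA against the Rosa26 locus and lines with either of 2 guides against Cebpd, sgRNA1 and sgRNA2. Each line received vehicle or IFN-gamma at 20 ng/ml for 24 hours, which gave 6 groups of 2 libraries. Whether a line is a clone or a pool of edited cells is not given in the sources used here. Nothing in the labels ties the paired libraries to independent cultures, so each p-value reflects sample-to-sample spread alone, and that spread may be technical.

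The 20S core of the proteasome is a barrel of stacked rings in which alpha subunits form the gate and beta subunits the inner chamber. Of the constitutive beta subunits, Psmb6 (β1) cuts after acidic residues, Psmb7 (β2) after basic ones and Psmb5 (β5) after hydrophobic ones. Under IFN-gamma, newly built cores take up Psmb9 (β1i), Psmb10 (β2i) and Psmb8 (β5i) in the same positions, which gives the immunoproteasome, known for making peptides that suit MHC class I molecules. Psme1 (PA28α) and Psme2 (PA28β) form the PA28 cap, which binds the end of the core and opens the gate in place of the 19S regulatory particle.

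Each catalytic subunit carries a threonine that becomes its first residue when the propeptide is removed. The coding sequence around that threonine is set out by the known pairs of inducible and constitutive subunits. Identity across pairs was not computed. The stretches below are 60 bases of coding sequence from GENCODE vM21 on GRCm38, 5′ to 3′, with the codon of that threonine in capitals.
Psmb5 (β5): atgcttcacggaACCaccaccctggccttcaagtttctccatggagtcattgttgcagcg
Psmb8 (β5i): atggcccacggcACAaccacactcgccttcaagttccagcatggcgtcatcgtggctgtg
Psmb6 (β1): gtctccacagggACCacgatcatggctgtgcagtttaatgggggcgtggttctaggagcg
Psmb9 (β1i): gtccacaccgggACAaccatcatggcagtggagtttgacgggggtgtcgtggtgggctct
Psmb7 (β2): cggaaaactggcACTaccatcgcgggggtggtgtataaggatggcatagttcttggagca
Psmb10 (β2i): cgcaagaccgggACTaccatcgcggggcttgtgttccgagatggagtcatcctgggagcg
The marked codon is codon 60 of 264 in Psmb5 and 73 of 276 in Psmb8, 34 of 238 in Psmb6 and 21 of 219 in Psmb9, and 44 of 277 in Psmb7 and 40 of 273 in Psmb10. Within these stretches Psmb8 and Psmb5 share 45 of 60 bases, Psmb9 and Psmb6 share 43, and Psmb10 and Psmb7 share 42. Over the aligned coding sequences the identity is 68.1%, 66.4% and 63.4% in the same order, and the longest identical runs are 18, 11 and 15 bases. The members of a pair are thus distinct in sequence along most of their length.

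Psme2 has a close copy, and no search for copies of the other members was made. Its coding sequence is 99.3% identical to that of Psme2b, a single-exon gene on chromosome 11, with an identical run of 311 bases. The authors' counting could therefore split reads between them, and Psme2 values are uncertain to that extent. Psme2b itself was counted at 3.95 ± 0.11 (CPM, counts scaled to a common library size, mean ± SD, n = 2) in control vehicle cells and at 19.1 ± 3.40 CPM in control IFN-gamma cells.

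On GRCm38, Psmb9 (chr17:34181987-34187764, minus strand) and Psmb8 (chr17:34197721-34201454, plus strand) lie 9956 bases apart in the MHC class II region, with Tap1 between them. The 212 bases at the 5′ end of Psmb9 (chr17:34187553-34187764) are exonic in Tap1 as well, on the opposite strand. The library kit does not mark strand, so reads from these 212 bases cannot be assigned to either gene. They make up a small part of the 3660 exonic bases of Psmb9. Psmb8 is overlapped over 2139 bases (chr17:34199316-34201454) by the antisense gene Gm20496, which is not in the count table. The exonic bases that Psmb8 and Gm20496 share were not determined, so Psmb8 values are uncertain to that extent. Psme1 (chr14:55578123-55581529, plus) and Psme2 (chr14:55587441-55591113, minus) are also neighbours, 5911 bases apart. Psme1 shares 14 exonic bases with Emc9. Psmb10 lies at chr8:105935735-105938444 inside the antisense transcript Gm16156, which was counted at 0.24 CPM or less in each group mean. Psmb5 lies at chr14:54614119-54618022 and Psmb6 at chr11:70525367-70527858. Psmb7, at chr2:38588036-38644087 on the minus strand, shares 405 of its 3421 exonic bases with Nek6 on the other strand, so Psmb7 values are uncertain to that extent. Nek6 was counted at 53.7 ± 1.31 CPM in control vehicle and 61.3 ± 1.29 CPM in control IFN-gamma cells, and at 42.9 ± 2.29 and 60.7 ± 0.24 CPM in sgRNA2 cells (SD, n = 2).

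Total counts per library lay between 16912710 and 24784371. Cebpd mRNA was present in all 12 libraries. It was counted at 9.09 and 7.13 CPM in control vehicle, 13.6 and 13.4 CPM in sgRNA1 vehicle and 10.6 and 8.51 CPM in sgRNA2 vehicle cells. With IFN-gamma it was at 53.5 and 49.1 CPM in control, 45.9 and 45.6 CPM in sgRNA1 and 30.2 and 29.4 CPM in sgRNA2 cells, where it was lower than in control (log2 fold change -0.78 ± 0.09, edgeR adjusted p = 3.03e-07). Against control, Cebpd was called higher in sgRNA1 vehicle cells (0.74 ± 0.12, edgeR adjusted p = 5.53e-05). It was not called in sgRNA2 vehicle cells (0.24 ± 0.13, edgeR adjusted p = 0.101) or in sgRNA1 IFN-gamma cells (-0.17 ± 0.08, edgeR adjusted p = 0.0917). A guide that changes the coding sequence need not lower the mRNA, so these levels do not check the labels of the guide lines. Mitochondrial transcripts took 0.533% to 1.18% of counts and ribosomal protein genes 7.38% to 13.7%. All 6 epithelial markers were present in each group, with summed levels between 2602 and 4057 CPM. In bulk RNA, fewer cells of a type and less RNA per cell cannot be told apart.

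Which proteasome genes respond to IFN-gamma, and whether both Cebpd guide lines respond as the control line does, is the first comparison. In control cells, IFN-gamma raised all 5 inducible members and lowered all 3 constitutive ones, with median log2 fold changes of 3.02 and -0.51 against 0.01 over all 13601 genes tested. Of those genes, 36.4% were called higher and 34.1% lower in the same comparison (edgeR's quasi-likelihood test, Benjamini-Hochberg adjusted p below 0.05, the rule for every call). In sgRNA1 cells the picture was alike, with 5 of 5 inducible members higher, at a median of 2.47, and 3 of 3 constitutive members lower, at a median of -0.54. There, 31.7% of genes were called higher and 29.6% lower. In sgRNA2 cells all 5 inducible members rose, at a median of 2.18, but no constitutive member fell and 1, Psmb7, was called higher. The backgrounds in that line were 30.5% called higher and 29.2% lower. With shares of that size, a call by itself sets a gene apart little, and the sizes of the changes follow for each pair.

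**Figure D1:**
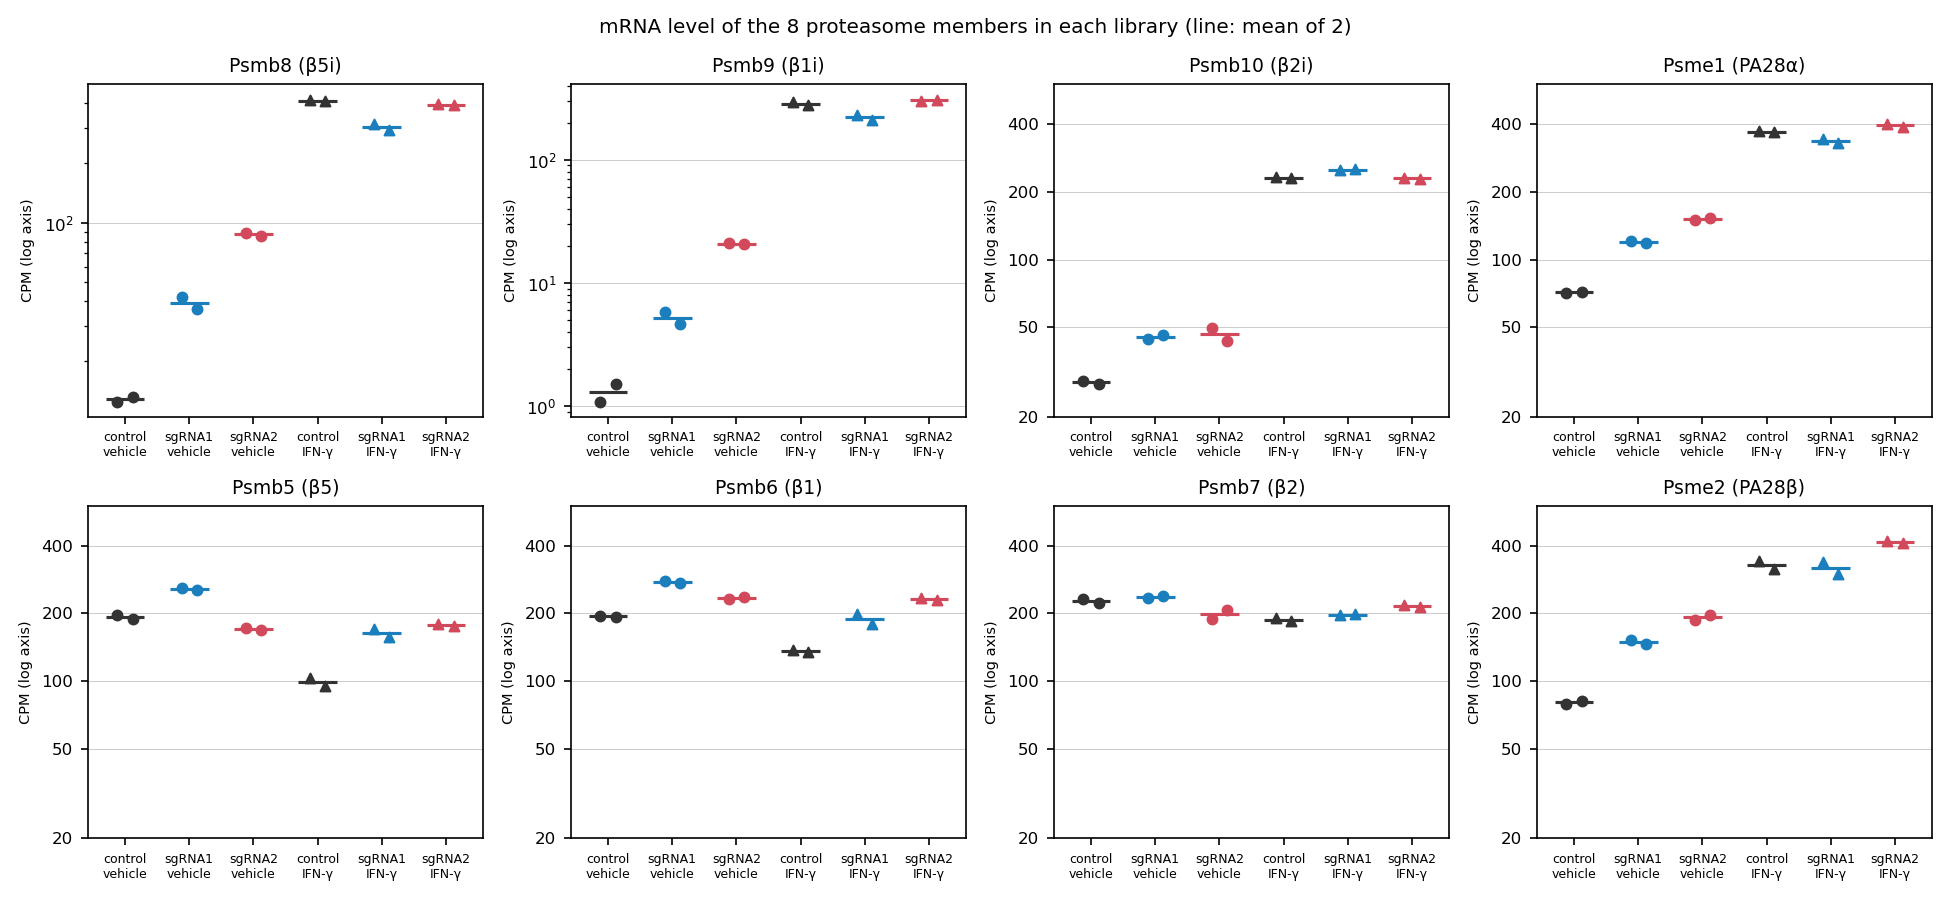
Level of each of the 8 members in CPM (log axis) by group, where circles are vehicle libraries, triangles IFN-gamma libraries and lines the mean of 2. The inducible members rise with IFN-gamma in each line and start from higher vehicle levels in sgRNA1 and sgRNA2 cells, while the constitutive members move over a narrow range.

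Psmb8, the inducible chymotrypsin-like subunit, was counted at 12.4 and 13.1 CPM in the control vehicle libraries and at 418 and 409 CPM with IFN-gamma. In sgRNA1 cells it was at 42.3 and 36.6 CPM with vehicle and at 316 and 292 CPM with IFN-gamma. In sgRNA2 cells the levels were 89.0 and 85.6 CPM with vehicle and 397 and 392 CPM with IFN-gamma. As folds, the 3 lines thus differed more with vehicle than with IFN-gamma, where sgRNA1 was lowest. Libraries of different lines did not overlap under either treatment. The log2 fold change with IFN-gamma was 5.02 ± 0.07 (SE) in control, 2.94 ± 0.06 in sgRNA1 and 2.18 ± 0.06 in sgRNA2 cells. These are 32.4-fold, 7.69-fold and 4.52-fold rises, with adjusted p-values of 4.81e-20, 2.19e-17 and 6.45e-16 in edgeR's quasi-likelihood test.

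Psmb5, the subunit that Psmb8 replaces, was at 197 and 189 CPM in control vehicle and at 103 and 95.5 CPM in control IFN-gamma libraries. In sgRNA1 cells it was at 258 and 254 CPM with vehicle and at 170 and 157 CPM with IFN-gamma. In sgRNA2 cells it was at 172 and 168 CPM with vehicle and at 180 and 176 CPM with IFN-gamma. The vehicle and IFN-gamma libraries were well apart in control and sgRNA1 cells, and close to each other in sgRNA2 cells. The fall was 0.51-fold in control (log2 fold change -0.96 ± 0.05, edgeR adjusted p = 7.69e-12) and 0.64-fold in sgRNA1 (-0.65 ± 0.05, edgeR adjusted p = 2.08e-09). In sgRNA2 cells the value was 0.07 ± 0.05, which did not pass (edgeR adjusted p = 0.237), and under upper quartile scaling it was -0.05.

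Read counts grow with transcript length, so the ratio of subunits was taken per kilobase of exon sequence. Per kilobase, Psmb8/Psmb5 was 0.0176 ± 0.0012 (SD, n = 2) in control vehicle cells and 1.11 ± 0.043 with IFN-gamma, a 63.1-fold rise. In sgRNA1 cells it went from 0.0409 ± 0.0037 to 0.496 ± 0.0012, a 12.1-fold rise. In sgRNA2 cells it went from 0.137 ± 0.0016 to 0.589 ± 0.0032, a 4.31-fold rise. The vehicle ratio was 2.32-fold above control in sgRNA1 and 7.75-fold above in sgRNA2, whereas with IFN-gamma control was 2.24-fold above sgRNA1 and 1.89-fold above sgRNA2. The order of the control line thus turned over between treatments, from lowest to highest, with no overlap between its libraries and those of either guide line. In control and sgRNA1 cells the fall of Psmb5 made up 16.1% and 18.1% of the log2 change in the ratio. In sgRNA2 cells Psmb5 was not called (0.07, edgeR adjusted p = 0.237).

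The level of such a ratio depends on the length used, while its change does not. With the longest coding transcript in place of the exon union, Psmb8/Psmb5 was 2.31 in control IFN-gamma cells, 1.03 in sgRNA1 and 1.22 in sgRNA2. Whether Psmb8 mRNA was more or less abundant than Psmb5 mRNA under IFN-gamma in the guide lines therefore cannot be read from these counts.

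Psmb9, the inducible β1i subunit, was nearly absent from control vehicle cells, at 21 and 29 counts or 1.08 and 1.52 CPM. It was at 5.79 and 4.65 CPM in sgRNA1 vehicle and at 21.0 and 20.5 CPM in sgRNA2 vehicle libraries. With IFN-gamma it stood at 293 and 277 CPM in control, 233 and 210 CPM in sgRNA1 and 299 and 308 CPM in sgRNA2 cells. The vehicle groups were fully separate in the order control, sgRNA1, sgRNA2. The log2 fold change with IFN-gamma was 7.77 ± 0.11 in control, 5.39 ± 0.09 in sgRNA1 and 3.87 ± 0.07 in sgRNA2 cells (edgeR adjusted p = 2.98e-20, 7.04e-19 and 3.25e-18). These rises of 218-fold, 42.0-fold and 14.6-fold were the widest of the 8 members in each line, and the control value rests on a vehicle level of 21 and 29 counts.

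Psmb6, the β1 subunit that Psmb9 replaces, was at 194 and 193 CPM in control vehicle and 138 and 135 CPM in control IFN-gamma libraries. It was at 279 and 272 CPM in sgRNA1 vehicle cells and at 199 and 180 CPM with IFN-gamma. In sgRNA2 cells the vehicle level of 231 and 237 CPM and the IFN-gamma level of 233 and 230 CPM overlapped. Psmb6 fell in control cells (log2 fold change -0.51 ± 0.05, edgeR adjusted p = 3.54e-08) and in sgRNA1 cells (-0.54 ± 0.05, edgeR adjusted p = 1.86e-08). In sgRNA2 cells its value was -0.01 ± 0.05 and did not pass (edgeR adjusted p = 0.823). That value was 0.01 without the filter on low counts, and -0.14 and called under upper quartile scaling (edgeR adjusted p = 0.0209).

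Psmb9/Psmb6 per kilobase was 0.00344 ± 0.00083 (SD, n = 2) in control vehicle and 1.07 ± 0.027 in control IFN-gamma cells, a 315-fold rise. It rose 62.0-fold in sgRNA1 cells, from 0.00967 ± 0.0013 to 0.597 ± 0.00011. It rose 14.7-fold in sgRNA2 cells, from 0.0455 ± 0.0017 to 0.670 ± 0.021. The vehicle ratio of sgRNA2 cells was 13.2-fold that of control, and that of sgRNA1 cells 2.81-fold. With IFN-gamma, control was 1.79-fold above sgRNA1 and 1.59-fold above sgRNA2. As for the β5 pair, the control line went from the lowest ratio to the highest.

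Psmb10, the inducible β2i subunit, had a smaller span. It was at 29.0 and 28.0 CPM in control vehicle, 44.1 and 46.2 CPM in sgRNA1 vehicle and 49.7 and 43.5 CPM in sgRNA2 vehicle cells, so that the guide lines overlapped each other but not the control. With IFN-gamma it was at 232 and 231 CPM in control, 249 and 253 CPM in sgRNA1 and 231 and 228 CPM in sgRNA2 cells. The log2 fold changes were 3.02 ± 0.06, 2.47 ± 0.05 and 2.30 ± 0.05 in the order control, sgRNA1, sgRNA2 (edgeR adjusted p = 2.64e-18, 4.64e-17 and 1.44e-16). Psmb10 differed least between lines of the 3 inducible catalytic subunits.

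Psmb7, the β2 subunit, had the smallest fold change of the 8 members in control and sgRNA1 cells. It was at 233 and 222 CPM in control vehicle and at 190 and 185 CPM with IFN-gamma, and at 235 and 239 CPM and then 197 and 198 CPM in sgRNA1 cells. In sgRNA2 cells it was at 189 and 208 CPM with vehicle and 219 and 212 CPM with IFN-gamma. It fell in control (log2 fold change -0.28 ± 0.05, edgeR adjusted p = 4.67e-05) and sgRNA1 cells (-0.26 ± 0.05, edgeR adjusted p = 0.000111). In sgRNA2 cells it was called higher by a small amount, 0.12 ± 0.05 (edgeR adjusted p = 0.0431). That call was lost without the first sgRNA2 vehicle library (0.11, edgeR adjusted p = 0.102) and when only the compared groups entered the fit (edgeR adjusted p = 0.110), and under upper quartile scaling the value was -0.0041.

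Psmb10/Psmb7 per kilobase was 0.251 ± 0.0019 (SD, n = 2), 0.383 ± 0.0078 and 0.473 ± 0.076 in control, sgRNA1 and sgRNA2 vehicle cells. With IFN-gamma it reached 2.48 ± 0.046, 2.55 ± 0.015 and 2.14 ± 0.027. These are rises of 9.86-fold, 6.67-fold and 4.55-fold. The pair differed from the others in that sgRNA1 cells reached a ratio 1.03-fold that of control with IFN-gamma, while the sgRNA2 ratio was 0.864-fold that of control. The wide SD in sgRNA2 vehicle cells comes from ratios of 0.527 and 0.420 in its libraries. With the longest coding transcript as length, the IFN-gamma ratios were 1.09, 1.125 and 0.944.

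The PA28 genes started high and rose less. Psme1 was at 71.3 and 72.0 CPM in control vehicle, 121 and 119 CPM in sgRNA1 vehicle and 150 and 153 CPM in sgRNA2 vehicle cells. With IFN-gamma it was at 372 and 369 CPM, 345 and 329 CPM, and 402 and 387 CPM in the same order of lines. Its vehicle levels were separate between all 3 lines. Its log2 fold changes were 2.37 ± 0.05, 1.49 ± 0.04 and 1.38 ± 0.04 (edgeR adjusted p = 3.21e-18, 3.29e-15 and 8.22e-15).

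Psme2, the PA28β gene, was at 79.3 and 81.4 CPM in control, 153 and 146 CPM in sgRNA1 and 186 and 197 CPM in sgRNA2 vehicle cells. With IFN-gamma it was at 342 and 315 CPM in control, 338 and 299 CPM in sgRNA1 and 421 and 413 CPM in sgRNA2 cells, so that control and sgRNA1 overlapped. Its log2 fold changes were 2.03 ± 0.06, 1.097 ± 0.06 and 1.121 ± 0.06 (edgeR adjusted p = 2.53e-15, 1.71e-11 and 1.11e-11). The Psme1/Psme2 ratio per kilobase stayed within a narrow range, from 0.631 ± 0.018 in sgRNA2 vehicle to 0.902 ± 0.047 in control IFN-gamma cells (SD, n = 2). It was 1.27-fold higher with IFN-gamma in control, 1.32-fold in sgRNA1 and 1.20-fold in sgRNA2 cells.

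**Figure D2:**
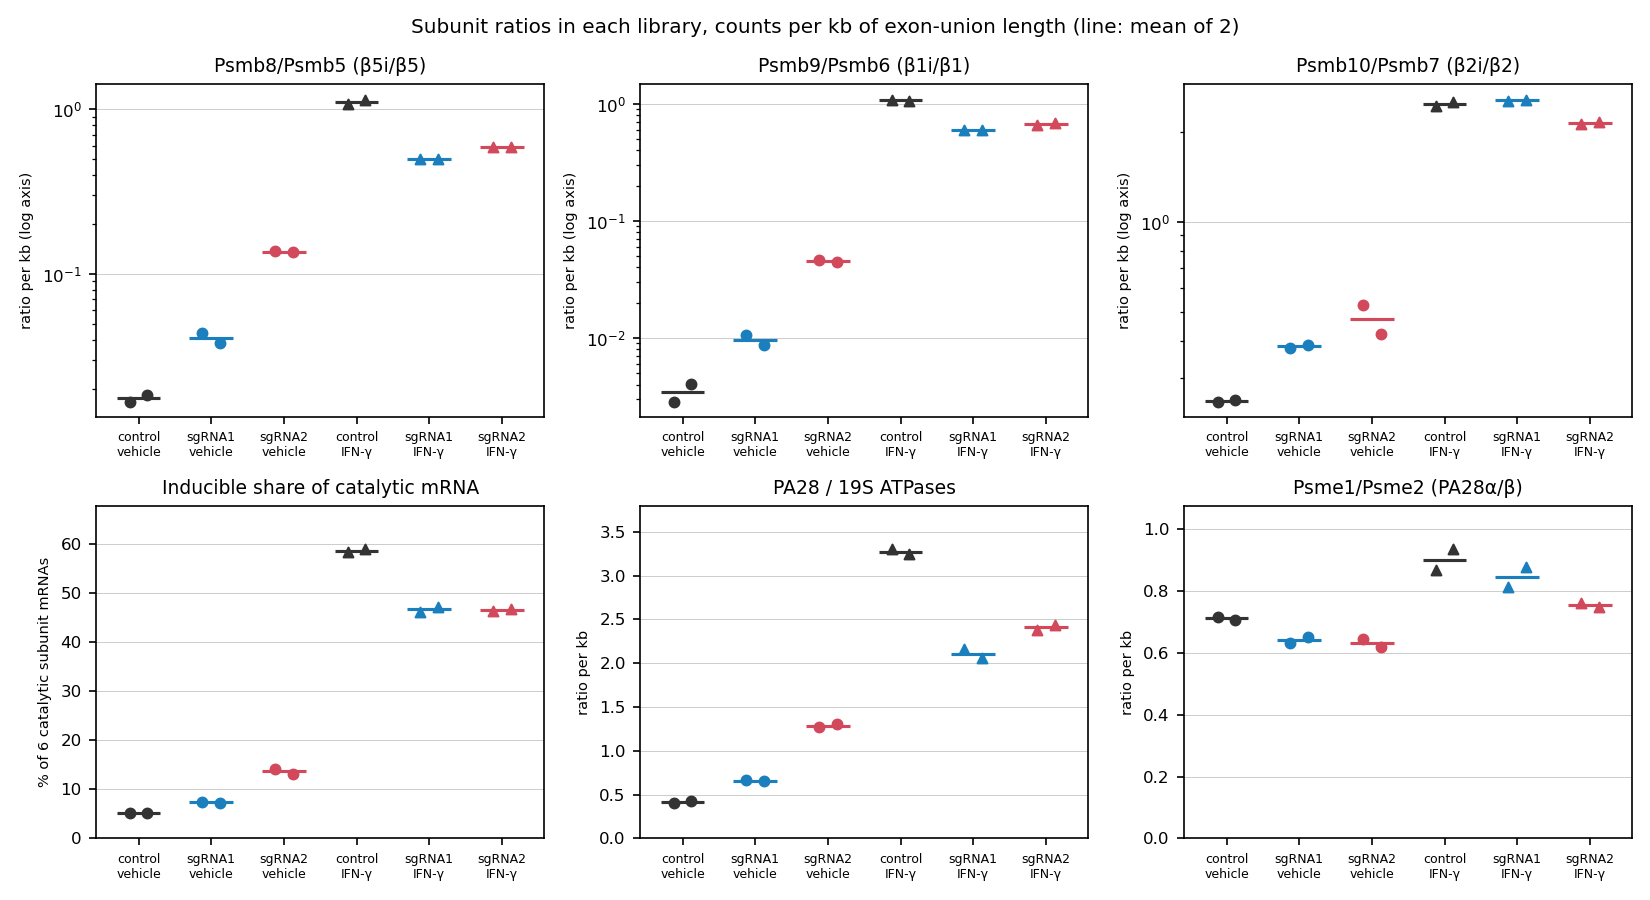
Subunit ratios per library from counts per kilobase, with the 3 pair ratios on log axes and the other panels on linear axes from 0. Circles are vehicle, triangles IFN-gamma and lines the mean of 2, and the control line has the lowest vehicle value and the highest IFN-gamma value for Psmb8/Psmb5, Psmb9/Psmb6, the inducible share and PA28 over 19S ATPases.

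Summed over the 6 catalytic subunits, the inducible share of catalytic subunit mRNA per kilobase was 5.14% ± 0.073 (SD, n = 2) in control vehicle cells, 7.31% ± 0.026 in sgRNA1 and 13.7% ± 0.78 in sgRNA2. With IFN-gamma it was 58.5% ± 0.45 in control, 46.6% ± 0.63 in sgRNA1 and 46.5% ± 0.33 in sgRNA2 cells. The share gained 53.4 percentage points in control, 39.3 in sgRNA1 and 32.8 in sgRNA2 cells. With IFN-gamma the libraries of the guide lines overlapped on this scale. With the longest coding transcript as length the IFN-gamma shares were 59.1%, 47.9% and 48.8%, and the libraries of the guide lines no longer overlapped (47.8% and 48.1% in sgRNA1, 48.5% and 49.1% in sgRNA2). The mean gain over the lines was 41.8 percentage points per kilobase of exon, 43.5 with transcript length and 49.9 with no division.

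PA28 and the 19S ATPases, which sit at the base of the 19S particle, compete for the ends of the core. Their mRNA per kilobase was compared as the geometric mean of the PA28 genes over that of the ATPase genes, not as sums. This ratio rose 7.89-fold with IFN-gamma in control cells, from 0.415 ± 0.011 to 3.27 ± 0.040 (SD, n = 2). It rose 3.20-fold in sgRNA1 cells, from 0.659 ± 0.0044 to 2.11 ± 0.073, and 1.87-fold in sgRNA2 cells, from 1.29 ± 0.021 to 2.41 ± 0.038. In vehicle cells the sgRNA2 ratio was 3.10-fold that of control. The constitutive catalytic subunits against the 20S alpha ring, also taken as geometric means, in contrast stayed between 0.750 and 0.946 in all group means.

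Over the 12 libraries, 6 of these 7 ratios were higher with IFN-gamma in each line, with an exact two-sided permutation p of 0.00926 (adjusted over the 7 ratios, 0.0108). The labels were exchanged within lines, and this is the smallest p that the 216 relabellings can give. The constitutive to alpha ring ratio did not pass (exact permutation p = 0.278), with log2 changes of -0.18 in control, 0.09 in sgRNA1 and -0.04 in sgRNA2 cells. Differences between lines in these ratios were not tested: an exact permutation of 2 libraries against 2 cannot give a p below 0.333, and no model was fitted to the ratios across all groups.

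**Figure D3:**
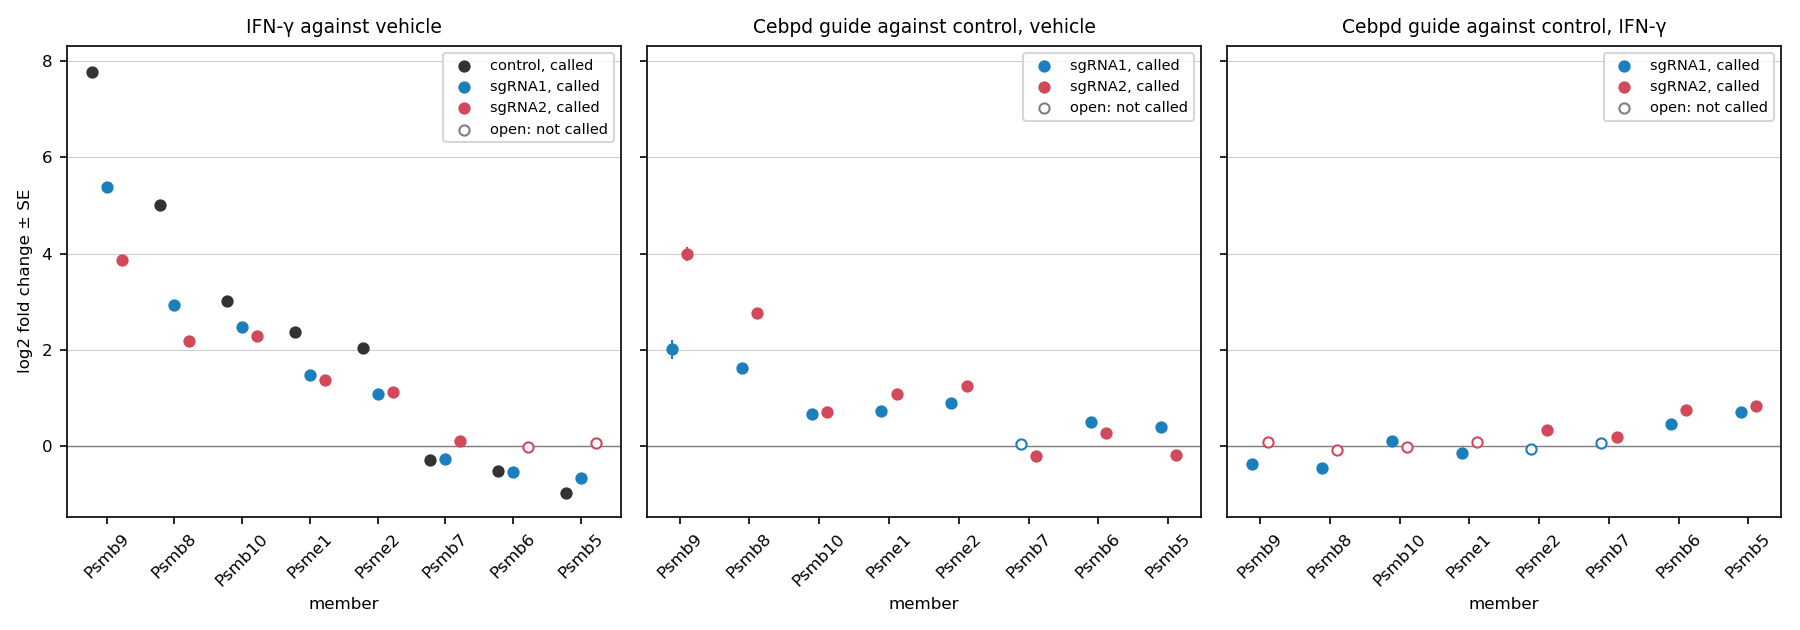
Log2 fold change ± SE of each member with IFN-gamma in the 3 lines (left), and between each Cebpd guide line and control with vehicle (middle) and IFN-gamma (right). Filled points were called and open points were not, and the inducible members lie well above 0 in the left panel in all lines, above 0 in the middle panel and near 0 in the right panel.

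The rest of the proteasome was read from lists of subunit genes, which encode the alpha ring, the structural beta subunits, the 19S particle and assembly factors. With IFN-gamma in control cells, 36.4% of all genes were called higher and 34.1% lower. All 11 other 20S core genes (7 alpha and 4 structural beta) were called lower there, at a median log2 fold change of -0.36 against 0.01 for all genes. They included Psma3 (-0.65 ± 0.05, edgeR adjusted p = 4.24e-09) and Psmb3 (-0.81 ± 0.05, edgeR adjusted p = 1.02e-10). Of 19 genes of the 19S particle, 17 were called lower and 1 higher, at a median of -0.69. Psmc4 fell by 1.19 and Psmd6 by 1.35 on the log2 scale. Of 8 assembly factors in the table, 6 were called lower, among them Psmg3, a chaperone of alpha ring assembly, at -1.54 ± 0.09. The 3 constitutive members thus fell together with most of the standard proteasome in this line.

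In sgRNA1 cells the same 11 core genes were called lower at a median of -0.58, and 15 of the 19 genes of the 19S particle were lower and 2 higher at a median of -0.38. Psma7 fell by 0.86 and Psmd14, the deubiquitinase of the 19S lid, fell by 0.88. Among all genes, 31.7% were called higher and 29.6% lower in sgRNA1 cells, and 30.5% and 29.2% in sgRNA2 cells. In sgRNA2 cells the balance was different. Of the 11 core genes 6 were called higher and 2 lower, at a median of 0.22 (0 lower without the second sgRNA2 vehicle library, and 1 without the first or without the second sgRNA2 IFN-gamma library), and of the 19 genes of the 19S particle 14 were higher and 2 lower, at a median of 0.38. The number of lower 19S genes was 1 with DESeq2, its size factors, no filter or only the groups compared, and without any single library other than those of control vehicle cells. Psmd11, a lid subunit, rose by 0.73 ± 0.05 and Psmc4 by 0.69 ± 0.06. Upper quartile scaling shifted the all-gene median by -0.12 in this comparison. On that scale 4 core genes were higher and 4 lower, and 11 genes of the 19S particle were higher and 3 lower, while the share of higher genes among all calls went from 51.1% to 38.1%.

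**Figure D4:**
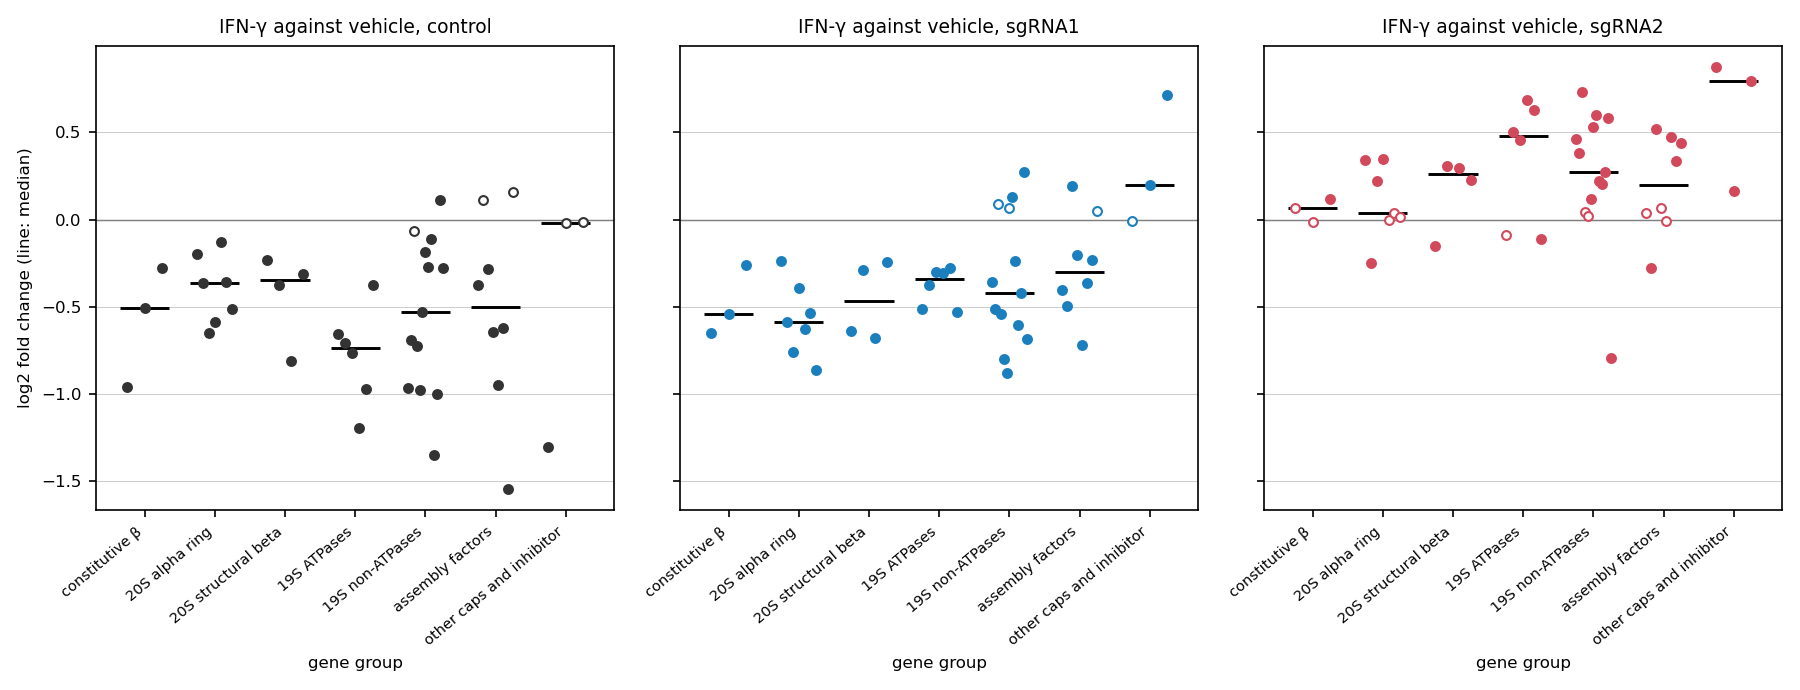
Log2 fold change with IFN-gamma of the constitutive members and of 6 lists of proteasome genes in control, sgRNA1 and sgRNA2 cells. Each point is a gene (filled if called, open if not) and lines are medians, which lie below 0 in control cells, below 0 in sgRNA1 cells except for the other caps, and above 0 in sgRNA2 cells.

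Psme3, which encodes the nuclear PA28γ cap, fell in control cells by 1.30 on the log2 scale (edgeR adjusted p = 9.39e-14), was at -0.01 in sgRNA1 (edgeR adjusted p = 0.885) and rose by 0.88 in sgRNA2 cells (edgeR adjusted p = 1.64e-10). Its level was 160 ± 3.12 CPM in control vehicle and 64.9 ± 2.56 CPM in control IFN-gamma cells, and 48.7 ± 1.53 and 89.4 ± 2.78 CPM in sgRNA2 cells (SD, n = 2). Psme4, which encodes the PA200 cap, was at -0.02 in control (edgeR adjusted p = 0.751) and rose by 0.20 in sgRNA1 and 0.17 in sgRNA2 cells (edgeR adjusted p = 0.00539 and 0.0181). Both Psme4 calls were lost under upper quartile scaling (0.10 and 0.05, edgeR adjusted p = 0.120 and 0.515). The sgRNA1 call was also lost without the first sgRNA1 vehicle library or the second sgRNA1 IFN-gamma library (0.15 in both), and the sgRNA2 call without the second sgRNA2 IFN-gamma library (0.10). Psmf1, which encodes the proteasome inhibitor PI31 and no cap, was at -0.01 in control and rose by 0.72 in sgRNA1 and 0.79 in sgRNA2 cells. Nfe2l1, which encodes the factor that raises proteasome genes when proteasome activity is short, rose in each line, by 1.64 ± 0.05, 1.11 ± 0.05 and 0.97 ± 0.05 in the order control, sgRNA1, sgRNA2. It was 1 of 3 listed regulators, of which 2 were called higher and 1 lower in control and sgRNA1 cells. In sgRNA2 cells 2 were called higher and 0 lower. Upper quartile scaling left 1 higher and 1 lower in each guide line. Ddi2, also listed, went from a mean of 74.9 to 52.6 CPM in control cells. All-gene shares were 36.4% higher and 34.1% lower in control, 31.7% and 29.6% in sgRNA1, and 30.5% and 29.2% in sgRNA2 cells.

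Interferon-responsive transcription regulators rose in each line. Irf8 rose by 4.52 in control, 3.26 in sgRNA1 and 3.40 in sgRNA2 cells, and Nlrc5, an activator of MHC class I genes, by 4.27, 3.66 and 3.08. Irf1, an interferon-induced transcription factor, rose by 4.98, 3.37 and 2.31 in that order. Its vehicle level was 24.6 ± 2.83 CPM in control, 49.2 ± 0.63 CPM in sgRNA1 and 126 ± 0.80 CPM in sgRNA2 cells (SD, n = 2). Of 7 genes that handle peptides after the proteasome, 6 were called higher and 1 lower in control, 5 and 2 in sgRNA1 and 6 and 1 in sgRNA2 cells, and upper quartile scaling left 5 higher in control. Of all genes, 36.4% were called higher and 34.1% lower in control, 31.7% and 29.6% in sgRNA1 and 30.5% and 29.2% in sgRNA2 cells. The peptidase gene Thop1 fell in control by 0.75 and in sgRNA1 by 0.41 on the log2 scale, and the aminopeptidase gene Npepps fell in sgRNA2 cells by 0.50. The other lower call in sgRNA1 cells was Npepps at -0.13 (edgeR adjusted p = 0.0137). The count of lower calls there was 1 without the second sgRNA1 vehicle, the first sgRNA1 IFN-gamma, either sgRNA2 vehicle or the first sgRNA2 IFN-gamma library. Tap1, a subunit of the transporter that carries peptides into the endoplasmic reticulum, rose by 7.57, 6.07 and 4.07. Already with vehicle, Tap1 was higher than in control by 0.83 ± 0.11 in sgRNA1 and by 2.99 ± 0.09 in sgRNA2 cells, and Irf1 by 1.00 ± 0.06 and 2.36 ± 0.06.

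The next comparison set each Cebpd guide line against control with vehicle, and asks whether the members differ before IFN-gamma is added. All 5 inducible members were higher in sgRNA1 cells, where 25.6% of genes were called higher and 26.9% lower. All 5 were also higher in sgRNA2 cells, where 38.3% were called higher and 35% lower. The medians were 0.89 in sgRNA1 and 1.25 in sgRNA2 cells, against 0.03 and 0.06 over all genes. Both comparisons share the control libraries.

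The catalytic subunits Psmb9 and Psmb8 led in both lines. Psmb9 was higher by 2.01 ± 0.20 in sgRNA1 and by 3.99 ± 0.15 in sgRNA2 cells (edgeR adjusted p = 2.32e-07 and 8.85e-14), which is 4.03-fold and 15.9-fold. Psmb8 was higher by 1.63 ± 0.08 and 2.77 ± 0.07 (edgeR adjusted p = 5.32e-11 and 1.20e-15), which is 3.09-fold and 6.83-fold. Psmb10 was higher by 0.66 ± 0.06 and 0.71 ± 0.06, Psme1 by 0.74 ± 0.05 and 1.08 ± 0.05, and Psme2 by 0.89 ± 0.06 and 1.25 ± 0.06. The distance to the levels with IFN-gamma differed between members. Psmb9 in sgRNA2 vehicle cells, at 20.8 ± 0.36 CPM (SD, n = 2), compares with 285 ± 11.3 CPM in control IFN-gamma cells. Psme2 in sgRNA2 vehicle cells, at 192 ± 7.56 CPM, compares with 329 ± 19.1 CPM in control IFN-gamma cells.

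The constitutive members did not share one direction. Psmb6 was higher in both guide lines, by 0.51 ± 0.05 and 0.27 ± 0.05 (edgeR adjusted p = 9.35e-08 and 6.25e-05). Psmb5 was higher in sgRNA1 by 0.41 ± 0.05 (edgeR adjusted p = 1.52e-06) and lower in sgRNA2 cells at -0.18 ± 0.05 (edgeR adjusted p = 0.00279). Psmb7 was at 0.06 ± 0.05 in sgRNA1 (edgeR adjusted p = 0.328) and lower in sgRNA2 cells at -0.20 ± 0.05 (edgeR adjusted p = 0.00135). Upper quartile scaling, which shifted the all-gene median by 0.10 in sgRNA1 and 0.17 in sgRNA2 cells and the share of higher genes among calls from 48.8% to 62.8% and from 52.3% to 62.5%, ended both lower calls in sgRNA2 cells (Psmb5 -0.02, edgeR adjusted p = 0.758, and Psmb7 -0.03, edgeR adjusted p = 0.593). On that scale Psmb7 was called higher in sgRNA1 cells (0.16, edgeR adjusted p = 0.00788).

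The core and the 19S particle differed from each other here. In sgRNA1 vehicle cells 10 of the 11 other core genes were called higher and none lower, and in sgRNA2 vehicle cells 7 were higher and 2 lower. Of the 19 genes of the 19S particle, 5 were higher and 14 lower in sgRNA2 cells, at a median of -0.60 (5 higher and 12 lower under upper quartile scaling). The corresponding numbers in sgRNA1 cells were 8 higher and 5 lower, and 13 higher and 2 lower under upper quartile scaling. Among all genes, 25.6% were called higher and 26.9% lower in sgRNA1, and 38.3% and 35% in sgRNA2 vehicle cells. The lower calls of the 19S particle in sgRNA1 cells were thus near the share over all genes. Upper quartile scaling took the share of higher genes among all calls from 48.8% to 62.8% in sgRNA1 and from 52.3% to 62.5% in sgRNA2 cells.

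Some other values moved with these groups. Ribosomal protein genes took 8.80% and 8.89% of counts in control vehicle, 11.5% and 11.5% in sgRNA1 vehicle and 13.2% and 13.7% in sgRNA2 vehicle libraries. Mitochondrial transcripts took 0.670% and 0.620%, 0.814% and 0.839%, and 1.1215% and 1.14% in that order. Of 9 leukocyte markers 4 were in the table, and their summed level was 1.498 to 1.63 CPM in control, 3.68 to 5.34 CPM in sgRNA1 and 8.71 to 10.6 CPM in sgRNA2 vehicle cells, most of it Csf1r. Ptprc, the pan-leukocyte marker CD45, had 0 to 10 counts per library and Itgam 0 to 3. Of 4 fibroblast markers 2 were in the table, with summed levels of 14.1 to 15.2, 18.8 to 20.6 and 32.0 to 32.2 CPM in the same order. The epithelial markers summed to between 3704 and 3945 CPM in these 6 libraries. The part of these shares and markers in the vehicle differences was not tested.

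With IFN-gamma in both arms, the inducible members differed less between the guide lines and control. In sgRNA1 cells 3 of 5 were lower and 1 higher, against 33.3% of genes called lower and 31.6% higher. Psmb8 was at -0.44 ± 0.05 (0.735-fold, edgeR adjusted p = 5.45e-07), Psmb9 at -0.36 ± 0.05 (0.777-fold, edgeR adjusted p = 1.10e-05) and Psme1 at -0.14 ± 0.04 (edgeR adjusted p = 0.00683). Psmb10 was called higher at 0.12 ± 0.05 (edgeR adjusted p = 0.0392). The Psmb10 call was lost with DESeq2 size factors, with DESeq2, without the filter on low counts, and without any of the 4 control or the 4 sgRNA1 libraries in turn (edgeR adjusted p from 0.0535 to 0.161). The Psme1 call was lost under upper quartile scaling (-0.07, edgeR adjusted p = 0.158), without either sgRNA2 vehicle library (-0.09 in both) and without the second sgRNA1 IFN-gamma library (-0.11, edgeR adjusted p = 0.0703). Psme2 was at -0.04 ± 0.06 and did not pass (edgeR adjusted p = 0.506).

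In sgRNA2 cells 1 of 5 inducible members was higher and none lower, against 30.2% of genes called higher and 31.6% lower. It was Psme2, at 0.34 ± 0.06 (1.27-fold, edgeR adjusted p = 3.26e-05). Psmb8 was at -0.07 ± 0.05, Psmb9 at 0.09 ± 0.05, Psmb10 at -0.01 ± 0.05 and Psme1 at 0.09 ± 0.04, none of which passed (edgeR adjusted p = 0.264, 0.145, 0.849 and 0.0691). Psme1 was called higher, at 0.12, without either sgRNA2 vehicle library, and at 0.11 when only the compared groups entered the fit (edgeR adjusted p = 0.0497). Under upper quartile scaling Psme1 (0.19) and Psmb9 (0.20) were called higher too.

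The constitutive members were higher in the guide lines with IFN-gamma. In sgRNA1 cells Psmb5 was higher by 0.72 ± 0.05 and Psmb6 by 0.48 ± 0.05 (edgeR adjusted p = 8.22e-10 and 1.14e-07), which is 1.65-fold and 1.39-fold. Psmb7 was at 0.07 ± 0.05 there (edgeR adjusted p = 0.195), and was called higher under upper quartile scaling, without either sgRNA2 vehicle library and without the first sgRNA2 IFN-gamma library, at 0.12 to 0.14. In sgRNA2 cells all 3 were higher, Psmb5 by 0.84 ± 0.05, Psmb6 by 0.76 ± 0.05 and Psmb7 by 0.20 ± 0.05 (edgeR adjusted p = 1.42e-10, 2.84e-10 and 0.00141). The lower pair ratios of the guide lines under IFN-gamma thus came from both sides in sgRNA1 cells, with less Psmb8 and Psmb9 and more Psmb5 and Psmb6. In sgRNA2 cells the called differences were on the constitutive side. The other core genes went the same way, with 9 of 11 higher in sgRNA1 and 11 of 11 in sgRNA2 cells. Among all genes, 31.6% and 30.2% were called higher in these comparisons.

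Other values differed between these IFN-gamma groups too. The 6 epithelial markers summed to 4010 to 4057 CPM in control, 2602 to 2613 CPM in sgRNA1 and 3073 to 3294 CPM in sgRNA2 cells. Mitochondrial transcripts took 1.03% and 1.18% of counts in control, 0.544% and 0.540% in sgRNA1 and 0.628% and 0.533% in sgRNA2 libraries, and ribosomal protein genes 7.80% and 7.81%, 7.84% and 7.38%, and 11.6% and 10.5%. Leukocyte markers summed to between 0.925 and 2.58 CPM and fibroblast markers to between 22.3 and 30.7 CPM in these 6 libraries. With IFN-gamma the epithelial sum and the mitochondrial share were thus lower in both guide lines than in control. The part of these values in the differences with IFN-gamma, and in the differences between responses that follow, was not tested.

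The test of the difference between responses, the interaction of line and treatment, gave a smaller IFN-gamma response of all 5 inducible members in both guide lines. For sgRNA1, 28.2% of genes were called lower and 26.9% higher in this test, and for sgRNA2, 34.7% lower and 30.4% higher. Psmb9 had the widest difference, at -2.38 ± 0.21 for sgRNA1 and -3.90 ± 0.17 for sgRNA2 (edgeR adjusted p = 3.28e-08 and 7.37e-13). Psmb8 followed at -2.07 ± 0.10 and -2.84 ± 0.09 (edgeR adjusted p = 1.20e-11 and 2.77e-14). Both tests share the control libraries, and the vehicle levels above enter them with the IFN-gamma levels. For Psmb8 in sgRNA2 cells, the difference of -2.84 is made of a vehicle difference of 2.77 and an IFN-gamma difference of -0.07.

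Among constitutive members, Psmb5 had a higher response than in control in both lines, at 0.31 ± 0.07 for sgRNA1 and 1.03 ± 0.07 for sgRNA2 (edgeR adjusted p = 0.00114 and 4.79e-10). For Psmb6 and Psmb7 the difference passed for sgRNA2 (0.49 ± 0.07 and 0.40 ± 0.07, edgeR adjusted p = 4.87e-06 and 5.22e-05). It did not for sgRNA1 (-0.03 ± 0.07 and 0.02 ± 0.07, edgeR adjusted p = 0.705 and 0.865). In sgRNA2 cells 18 of the 19 genes of the 19S particle also had a higher response than control and 1 a lower one, Sem1 being the exception, as did 8 of 11 other core genes. In sgRNA1 cells the numbers for the 19S particle were 13 higher and 2 lower, and 10 higher and 4 lower under upper quartile scaling. The 11 other core genes differed from this in sgRNA1 cells, with 1 higher response and 5 lower ones, at a median of -0.11. Upper quartile scaling gave 0 higher and 5 lower. Among all genes, 26.9% had a higher and 28.2% a lower response for sgRNA1, and 30.4% and 34.7% for sgRNA2.

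Direct comparison of the guide lines shows how far they differ from each other. With vehicle, 4 of 5 inducible members were higher in sgRNA2 than in sgRNA1 cells and all 3 constitutive members were lower, while 33.2% of genes were called higher and 29.1% lower. Psmb9 was higher by 1.98 ± 0.11 and Psmb8 by 1.14 ± 0.06 (edgeR adjusted p = 6.60e-11 and 4.39e-11), and Psmb5 was at -0.59 ± 0.05 (edgeR adjusted p = 8.44e-09). Psmb10 was at 0.05 ± 0.06 and did not pass (edgeR adjusted p = 0.497). With IFN-gamma, 4 of 5 inducible members were higher and 1 lower, and all 3 constitutive members were higher, against 23.4% of genes called higher and 24.5% lower. Psmb9 was higher by 0.46 ± 0.05, Psme2 by 0.39 ± 0.06, Psmb8 by 0.38 ± 0.05 and Psmb6 by 0.29 ± 0.05. The smaller calls for Psmb10 (-0.13 ± 0.05), Psmb5 (0.13 ± 0.05) and Psmb7 (0.13 ± 0.05) were lost without single libraries. The values without single IFN-gamma libraries of these lines ranged from -0.14 to -0.12 for Psmb10, and were as low as 0.07 for Psmb5 without the second sgRNA1 library and 0.0996 for Psmb7 without the first sgRNA2 library.

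Correlation of log2(CPM + 1) over the 12 libraries, which share lines and treatments and so are no independent points, describes how the members vary together. The inducible members correlated with each other at Pearson r from 0.932 (Psmb10 with Psme2) to 0.995 (Psmb9 with Psme1). Psmb5 correlated with Psmb6 at 0.910 and with Psmb7 at 0.850, and Psmb6 with Psmb7 at 0.680. Every inducible member had a negative r with every constitutive member, from -0.25 (Psme2 with Psmb6) to -0.69 (Psmb9 with Psmb7).

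Among 11937 genes compared, those most like the inducible members included interferon-responsive genes such as members of the OAS family. For Psmb9 they were Ifih1, an RNA sensor (r = 0.998), Xaf1 and Oasl2, and for Psmb8 Denn2b (0.997), Ifi202b and Rtp4. For Psmb10 they were Serpina3g (0.996), Cfb and Oas1a, for Psme1 Icam1 (0.997), Ifi47 and Cd74, and for Psme2 Oasl1 (0.993), H2-Q7 and Casp1. Psmb5 was most like Tmem14c (0.997), Psmd13, a 19S lid subunit (0.995), and Gsto1. Psmb6 was most like Hint1 (0.990), Ciao2a and Smu1. Psmb7 had no gene as close, with Taco1 (0.951), Lypla1 and Prps1 as the nearest.

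Promoter letters were read for the members that move together, from RefSeq on GRCm38.p6. There, 7 of the 8 members had an entry of 300 bases (250 before the start and 50 after), and Psmb7 had none. The 4 motifs were searched on both strands. GAS, the element known for the response to IFN-gamma, was searched as TTCNNNGAA, ISRE, to which IRF factors bind, as GAAANNGAAA, ARE, to which NFE2L1 binds, as TGACNNNGC, and a C/EBP motif as TTGCNNAA. The windows below are 30 bases, 5′ to 3′ on the gene's strand, with the match in capitals.
Psmb8 (GAS, chr17:34198088-34198117, plus): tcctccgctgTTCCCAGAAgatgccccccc
Psme1 (ISRE, chr14:55578493-55578522, plus): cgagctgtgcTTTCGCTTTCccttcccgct
Psmb6 (ARE, chr11:70525338-70525367, plus): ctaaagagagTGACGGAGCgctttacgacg
Psmb5 (ARE, chr14:54618023-54618052, minus): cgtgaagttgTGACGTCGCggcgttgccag
Psmb5 (C/EBP, chr14:54617982-54618011, minus): tcctgttgcccTTGCTAAAcatggcgctgg
The match begins at base -97 from the RefSeq start in Psmb8, at 10 in Psme1, at -9 in Psmb6, and at -47 and -5 in Psmb5. Of 32851 promoters, 8.30% held the GAS letters, 3.44% the ISRE letters, 12.4% the ARE letters and 10.8% the C/EBP letters. Among these entries, each interferon motif was found in 1 inducible member. The ARE was found in 2 constitutive members, and the C/EBP motif in 1 of them. Such letters are common, and the other inducible members had no match in their window.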

How the data were processed

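The authors deposited raw read counts per gene for 12 libraries, as whole numbers without normalization. Per the labels' protocols, an Illumina TruSeq RNA kit, which does not mark strand, was used on 1 ug of RNA. The tools STAR 2.4.0, HTSeq and DESeq2 1.10 and the build mm10 are listed, without roles, in the submitters' processing notes. The strand setting of the counting is not given in the sources used here.

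Genes were filtered with edgeR 4.0.16 (filterByExpr, minimum count 10, minimum total 15), which kept 13601 of 16283 genes with 99.965% of counts. Libraries were scaled by TMM (factors 0.963 to 1.09), and all 6 groups were fitted in 1 quasi-likelihood model with 6 residual degrees of freedom and a common biological coefficient of variation of 4.67%. P-values were Benjamini-Hochberg adjusted over all genes tested and called below 0.05. SE is the log2 fold change divided by the square root of F. The fits were tested on simulated data with known changes in a single group. Far fewer genes changed there than were called here, so scaling under changes this wide was not tested. Depth was 16912710 to 24784371 counts per library. Libraries of a group differed by more than sampling noise (chi-square per degree of freedom 2.70 to 6.91).

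Ratios used counts per kilobase of exon union in GENCODE vM21 (GRCm38, the same assembly as mm10) and exact permutation tests within lines. The members and lists were chosen with earlier results of these data known. Named list genes were the up to 4 largest called changes with a mean of at least 1 CPM, and the 3 genes most like each member were named by Pearson correlation. Irf1 vehicle levels, Psme3 and Psmf1 in lines where they were not called, Nek6 and Sem1 were added after their values were seen. Results for 1 list of upstream factors are not reported here as a whole. Psmb11, Psma8 and Paaf1 were on the lists and are not analysed here. Alternatives were other scalings, DESeq2 1.42.0, no filter, a replicate block, only the groups compared, leaving out each library and, for ratios, other lengths. Counts of Psme2b added to Psme2 were an alternative chosen after seeing the data. No pairing by replicate number was seen, since 0 of 15 correlations of same-numbered libraries exceeded 0.1 (r from -0.13 to 0.05). With 2 libraries per group this cannot exclude a weak pairing.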

Additional observations from a re-analysis of the deposited data

Results flagged for a closer look

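The IFN-gamma response of 14 member and line combinations differed from that of the control line in edgeR's interaction test (log2 difference of guide line response minus control response). Among all genes, 26.9% were called higher and 28.2% lower in that test for sgRNA1, and 30.4% and 34.7% for sgRNA2. For sgRNA1 the differences were -2.38 for Psmb9, -2.07 for Psmb8, -0.94 for Psme2, -0.88 for Psme1, -0.55 for Psmb10 and 0.31 for Psmb5. For sgRNA2 they were -3.90 for Psmb9, -2.84 for Psmb8, -0.99 for Psme1, -0.91 for Psme2, -0.72 for Psmb10, 1.03 for Psmb5, 0.49 for Psmb6 and 0.40 for Psmb7. All 5 inducible members had a smaller response in both guide lines, and the constitutive members named here a higher one. Both sets of values share the control libraries, and the vehicle levels enter them with the IFN-gamma levels. Psmb9 differed from control by 2.01 with vehicle and -0.36 with IFN-gamma in sgRNA1 cells. In sgRNA2 cells it differed by 3.99 with vehicle and by 0.09 with IFN-gamma, which did not pass (edgeR adjusted p = 0.145). With 2 libraries per group, no group was large enough for a test of single outlying libraries.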

How the results depend on the processing

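The 88 member results (8 members in 11 comparisons) were refitted under 18 alternatives. Totals of called genes per comparison stayed between 0.773 and 1.03 times those reported. The ratio tests gave the same side of the threshold under each length and without each library, at the smallest p the permutations allow for 6 of 7. The replicate numbers were also fitted as a block, which changed none of the 88 member calls.

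In sgRNA2 cells with IFN-gamma, the number of constitutive members called higher went from 1 to 0 under upper quartile scaling and with only the groups compared, and was 0 to 1 without single libraries (0 without the first sgRNA2 vehicle library). The number called lower went from 0 to 1 under upper quartile scaling, where Psmb5 was -0.0519 and Psmb7 -0.0041. Psmb6 was 0.0086 without the filter on low counts and ranged from -0.0085 to 0.0559 without single libraries. Under upper quartile scaling the number of constitutive members lower in sgRNA2 than in control vehicle cells went from 2 to 0.

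With IFN-gamma, the number of inducible members higher in sgRNA1 than in control went from 1 to 0 with DESeq2 size factors, DESeq2 or no filter and was 0 to 1 without single libraries. Psme2 was 0.0262 there under upper quartile scaling and ranged from -0.14 to 0.0386 without single libraries. The number higher in sgRNA2 than in control went from 1 to 3 under upper quartile scaling and to 2 with only the groups compared, and was 1 to 2 without single libraries (2 without either sgRNA2 vehicle library). Psmb8 was 0.0372 and Psmb10 0.0937 there under upper quartile scaling, and Psmb10 was 0.0068 with only the groups compared and ranged from -0.0171 to 0.0193 without single libraries.

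In the sgRNA1 interaction, Psmb7 was -0.00069 with DESeq2 size factors, -0.00066 with DESeq2 and -0.0187 under upper quartile scaling, and ranged from -0.0204 to 0.0745 without single libraries, and Psmb6 ranged from -0.11 to 0.0363. Between the guide lines, Psmb10 with vehicle ranged from -0.0928 (without the first sgRNA2 library) to 0.11 without single libraries. With IFN-gamma, the number of inducible members lower in sgRNA2 than in sgRNA1 went from 1 to 0 under upper quartile scaling, DESeq2 and only the groups compared, and was 0 to 1 without single libraries, where the number of constitutive members called higher was 1 to 3 (1 without the second sgRNA1 or the first sgRNA2 IFN-gamma library). The cause of these changes was not tested, except that leaving out a library leaves fewer samples. A group left with 1 library was assumed to vary like the others. Depth limits Psmb9 in control vehicle cells, at 21 and 29 counts.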
